A study of Mus musculus with 6 samples.

Results

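The TNF ligand and receptor superfamily was examined in mouse ear skin after sensitisation and challenge with FITC, a reactive fluorescent dye that provokes an allergic contact response. The members were chosen by gene symbol: those starting with Tnfsf or Tnfrsf, together with Tnf, Lta, Ltb, Ltbr, Cd40, Cd40lg, Cd27, Cd70, Fas, Eda, Edar and Eda2r, and without Tnfrsf4, Tnfrsf9 and Tnfrsf18. These rules gave 38 of 19938 genes, 15 ligands and 23 receptors, each read by 1 probe set that is listed with no other gene. Tnfsf12 and Tnfsf13 share their probe set and were therefore not members.

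The 2 groups were 3 mice with 1 copy of the CLEC4C-DTR transgene (genotype CLEC4C-DTR/+) and 3 littermate controls without it, all aged 10 to 12 weeks, with 1 mouse and 1 FITC-painted right ear per array. In these mice CLEC4C, known from plasmacytoid dendritic cells of humans, drives the receptor for diphtheria toxin, and toxin kills cells which carry that receptor. All 6 mice, controls included, received the toxin (200 ng on days -1, 1, 3 and 5) and were painted with FITC at 0.5% on the shaved abdomen on days 0 and 2 and with 20 µL of the same solution on the ear on day 6. Neither an unpainted ear nor a transgenic mouse spared the toxin was among these arrays, so the transgene and the loss of cells cannot be told apart, and whether the differences depend on the challenge was not measured. Values are log2 RMA values (an array signal that was background-corrected, quantile-normalised and summarised per probe set), and a difference is always CLEC4C-DTR minus control on that scale.

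Ligands of the TNF superfamily are mostly membrane proteins that act as trimers, some of them after being shed, and they cluster receptors on neighbouring cells. Some receptors with a death domain can trigger caspase activation and cell death, and many without one recruit TRAF adaptors. Receptors of both kinds can switch on NF-kB and MAP kinases. In skin, TNF from myeloid cells and keratinocytes drives leukocyte recruitment, ligands such as those of 4-1BB and OX40 costimulate T cells, and ectodysplasin with its receptor Edar builds hair follicles.

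Of the 38 members, 6 were higher in CLEC4C-DTR skin, 2 were lower and 30 did not pass the threshold of an adjusted p of 0.05. The 8 called members were 21.1% of the superfamily, and over all genes the same test called 9.32%, of which 5.01% were higher and 4.31% lower. The 6 that rose were the ligands Tnf and Tnfsf9, both TNF receptors (Tnfrsf1a and Tnfrsf1b), and the receptors Tnfrsf23 and Tnfrsf26. The 2 that fell were the ligand Tnfsf18 and the receptor Tnfrsf19. A difference of at least 2-fold, the size that the study's design text asks for, was found for Tnf, Tnfrsf1b, Tnfrsf23 and Tnfrsf26 upward (background 1.67%) and for Tnfrsf19 downward (background 0.376%). The median difference of the members was 0.17, and that of all genes was -0.04.

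The calls changed with the arrays used. With all 6 arrays, 13 of the 38 members and 5437 of all 19938 genes lay below an unadjusted p of 0.05. Counts below that p, here and in later paragraphs, are to be read against this background. The count over all genes is not given for the fits that lack an array. Without the array of CLEC4C-DTR replicate 3, limma called 0 members (16 below an unadjusted p of 0.05) and 108 genes in all. It also called 0 without control replicate 1 (12 members below an unadjusted p of 0.05, 167 genes called) and without control replicate 3 (11 members, 67 genes called). Removing CLEC4C-DTR replicate 2 gave 2 rises and 1 fall (466 genes called), and removing control replicate 2 gave 3 rises and 1 fall (1219 genes called). Removing CLEC4C-DTR replicate 1 gave 9 rises and 2 falls (2617 genes called), and all 8 called members still passed. Counts of calls in these fits, here and in later paragraphs, are to be read against these totals over all genes. Of these 6 fits, Tnfrsf1b and Tnfrsf19 passed in 3, Tnfsf9, Tnfrsf1a and Tnfrsf23 in 2, and Tnf, Tnfrsf26 and Tnfsf18 in 1.

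The bases before the start of 6 genes are printed: Tnf and its receptors, which rose, the neighbours Lta and Ltb of Tnf, which did not pass, and Tnfrsf23, which rose the most. They are the 250 bases before the annotated start, from RefSeq (build GRCm38.p6), written 5′ to 3′ on the gene's strand. Capitals mark matches to the kappaB consensus GGGRNWYYCC, to the AP-1 motif TGANTCA or to the TATA box TATAAA, each searched on both strands. R stands for A or G, W for A or T, Y for C or T and N for any base.

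Tnf, chr17:35202008-35202257, minus strand: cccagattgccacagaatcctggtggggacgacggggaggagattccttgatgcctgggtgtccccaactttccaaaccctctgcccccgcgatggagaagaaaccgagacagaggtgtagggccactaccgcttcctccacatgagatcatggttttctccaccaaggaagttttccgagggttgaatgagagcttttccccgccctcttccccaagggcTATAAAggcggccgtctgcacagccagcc

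Lta, chr17:35205352-35205601, minus strand: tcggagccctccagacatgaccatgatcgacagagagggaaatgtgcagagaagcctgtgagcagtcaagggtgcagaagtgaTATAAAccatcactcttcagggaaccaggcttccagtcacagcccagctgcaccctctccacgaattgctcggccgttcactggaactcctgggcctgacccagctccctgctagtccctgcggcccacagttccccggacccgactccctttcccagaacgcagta

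Ltb, chr17:35194257-35194506, plus strand: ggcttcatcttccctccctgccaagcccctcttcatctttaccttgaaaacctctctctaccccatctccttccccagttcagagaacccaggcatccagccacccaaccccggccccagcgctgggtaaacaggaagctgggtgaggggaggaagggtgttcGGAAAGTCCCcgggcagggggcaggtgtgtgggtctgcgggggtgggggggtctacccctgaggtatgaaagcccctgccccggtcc

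Tnfrsf1a, chr6:125349473-125349722, plus strand: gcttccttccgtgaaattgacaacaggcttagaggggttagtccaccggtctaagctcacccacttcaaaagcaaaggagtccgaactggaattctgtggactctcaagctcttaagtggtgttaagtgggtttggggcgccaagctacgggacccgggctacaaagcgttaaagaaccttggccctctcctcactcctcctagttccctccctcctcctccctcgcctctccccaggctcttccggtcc

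Tnfrsf1b, chr4:145246871-145247120, minus strand: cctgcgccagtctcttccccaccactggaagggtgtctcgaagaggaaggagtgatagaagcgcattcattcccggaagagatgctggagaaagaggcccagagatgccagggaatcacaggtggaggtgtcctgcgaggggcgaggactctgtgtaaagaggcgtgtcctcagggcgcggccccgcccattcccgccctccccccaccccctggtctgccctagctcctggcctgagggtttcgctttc

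Tnfrsf23, chr7:143685876-143686125, minus strand: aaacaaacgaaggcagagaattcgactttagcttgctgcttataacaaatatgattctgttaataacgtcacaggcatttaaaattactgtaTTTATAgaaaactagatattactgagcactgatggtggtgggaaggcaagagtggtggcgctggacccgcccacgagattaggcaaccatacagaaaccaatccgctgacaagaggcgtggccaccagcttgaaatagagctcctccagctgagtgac

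Tnf holds a TATA match whose first base lies 29 bases before its start, Lta holds one 167 bases before its start, and Ltb holds a kappaB match 87 bases before its own. The windows of Tnfrsf1a and Tnfrsf1b hold none of the 3 motifs, and that of Tnfrsf23 holds a TATA match 158 bases before the start. A promoter was found in the RefSeq table for 29 of the 38 members, in 32 windows since some genes have several starts. A kappaB match was found in 2 of these windows (Ltb and Tnfrsf8), against 3.90% of all 32851 promoters in the table. An AP-1 match was found in 4 (Fas, Tnfrsf8, Tnfsf13b and Tnfsf14), against 6.75%, and a TATA match in 7, against 12.4%. None of the 6 called genes with a promoter in the table held a kappaB or AP-1 match within its 250 bases. Given the shares over all promoters, the absence of a match in 6 genes is no result about them. A match describes the letters of a window and not the binding of a factor. A window without one says nothing on sites farther away or on sites within it that depart from the consensus.

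Tnf, the founding ligand and a main inflammatory cytokine of skin, was at 7.59, 8.86 and 8.39 (log2) in CLEC4C-DTR replicates 1, 2 and 3 and at 7.02, 7.02 and 6.82 in control replicates 1, 2 and 3. Every CLEC4C-DTR value lay above every control value, and replicate 1 of CLEC4C-DTR lay nearest to the controls. The difference was 1.33 (SE 0.28, adjusted p = 0.0287), a 2.51-fold rise. Its SD was 0.64 among the 3 CLEC4C-DTR arrays and 0.11 among the 3 control arrays.

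Both receptors of TNF rose. Tnfrsf1b (TNFR2), which lacks a death domain and is found on leukocytes above all, was at 8.04, 8.87 and 8.69 in CLEC4C-DTR skin and at 7.34, 7.31 and 7.03 in controls. The groups lay apart by more than the range of the controls, and the difference was 1.31 (SE 0.20, adjusted p = 0.0160), or 2.48-fold. Tnfrsf1a (TNFR1), the death domain receptor that most cell types carry, was at 10.21, 10.36 and 10.30 against 9.85, 9.86 and 9.78. Its groups did not overlap either and were both narrow (SD 0.07 and 0.04, n = 3 each), and the difference was 0.46 (SE 0.08, adjusted p = 0.0186), or 1.37-fold. The difference of Tnfrsf1b exceeded that of Tnfrsf1a by 0.85 (exact permutation p = 0.1, two-sided, the smallest that 3 against 3 arrays allow). Pairs compared by this test, here and below, were chosen after their values were seen. Its p-value was 0.1 for all 8 pairs, so it gives no support for a difference within a pair.

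**Figure D1:**
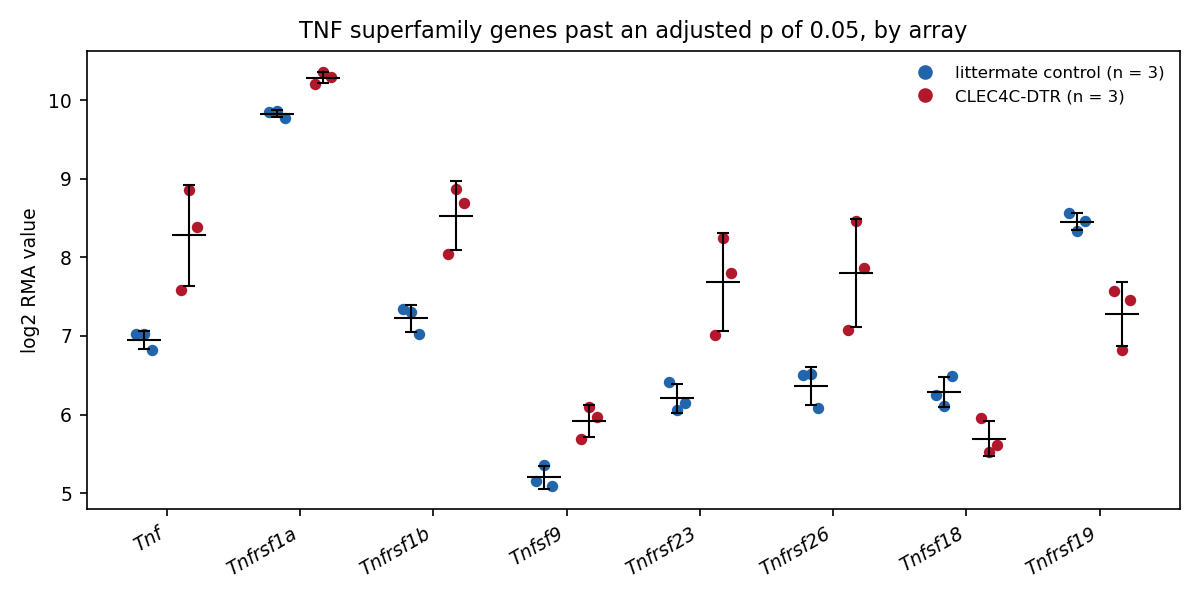
Log2 RMA values of the 8 TNF superfamily genes past an adjusted p of 0.05 in each of 3 littermate control (blue) and 3 CLEC4C-DTR (red) arrays, with replicates 1 to 3 from left to right and the mean and SD in black. The groups do not overlap for any of the 8, and CLEC4C-DTR replicate 1 is the lowest of its group for all 6 genes that rose.

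Lta and Ltb, the lymphotoxins, are encoded on either side of Tnf with no other protein-coding gene between them. Lta, which as a trimer binds both TNF receptors, was at 5.49, 5.89 and 5.52 in CLEC4C-DTR skin and at 5.48, 5.77 and 5.48 in controls. The groups overlapped, and the difference was 0.06, with a 95% interval of -0.25 to 0.37 (adjusted p = 0.819). Ltb, which joins with lymphotoxin alpha in a membrane complex that binds Ltbr, was at 6.17, 6.77 and 6.49 against 5.91, 6.12 and 5.85. All 3 CLEC4C-DTR values of Ltb lay above the controls, but its difference of 0.52 did not pass with all arrays (SE 0.15, adjusted p = 0.0735). It passed without CLEC4C-DTR replicate 1, with array weights and with a replicate block, and its adjusted p ranged from 0.0159 to 0.234 over all alternatives. The difference of Tnf exceeded that of Lta by 1.27 and that of Ltb by 0.81. Each had the smallest possible exact permutation p of 0.1, for pairs chosen after their values were seen.

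Ltbr, the lymphotoxin beta receptor of stromal and myeloid cells, was at 7.84, 7.84 and 7.64 against 7.59, 7.69 and 7.52. The groups overlapped, with a difference of 0.17 and a 95% interval of -0.04 to 0.38 (adjusted p = 0.271). Tnfsf14 (LIGHT), the other ligand of Ltbr, was at 5.68, 6.30 and 5.91 against 5.56, 5.42 and 5.46. Its groups lay apart, but the difference of 0.48 did not pass (SE 0.15, adjusted p = 0.0835). Tnfsf14 passed in the fit that lacks CLEC4C-DTR replicate 1, and its adjusted p ranged from 0.0226 to 0.245 over all alternatives. Tnfrsf14 (HVEM), the second receptor of LIGHT, differed by 0.33 (SE 0.18, adjusted p = 0.274), with control replicate 2 at 7.33 among the CLEC4C-DTR values of 7.16 to 7.43.

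Tnfsf9 (4-1BB ligand), a costimulator of T cells made by activated antigen-presenting cells, was at 5.69, 6.09 and 5.97 in CLEC4C-DTR skin and at 5.15, 5.36 and 5.09 in controls. It rose 1.64-fold, by 0.72 (SE 0.12, adjusted p = 0.0186), with no overlap of the groups. Its chromosomal neighbours are Cd70 and then Tnfsf14. Cd70, which costimulates T cells through Cd27, differed by 0.11 (SE 0.11, adjusted p = 0.539), and Cd27 by 0.05 (SE 0.10, adjusted p = 0.804).

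Tnfsf18 (GITR ligand), a costimulatory ligand of endothelial and antigen-presenting cells, moved the other way. It was at 5.95, 5.52 and 5.61 in CLEC4C-DTR skin and at 6.25, 6.11 and 6.49 in controls, and so fell (log2 -0.59, SE 0.14, adjusted p = 0.0414). Every CLEC4C-DTR value lay below every control value. Tnfsf4 (OX40 ligand), which lies next to Tnfsf18, had values of 4.80, 4.88 and 4.46 against 4.51, 4.32 and 4.52. The groups of Tnfsf4 overlapped, with a difference of 0.27 (SE 0.12, adjusted p = 0.208). The difference of Tnfsf18 lay 0.85 below that of Tnfsf4 (log2 -0.85, exact permutation p = 0.1, the smallest possible).

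Of the 12 ligands that did not pass, 11 had positive differences, against 8329 of all 19938 genes. The full range of these ligands ran from -0.16 (Eda) to 0.52 (Ltb). Besides Ltb and Tnfsf14, those whose groups did not overlap were Tnfsf15 and Tnfsf13b, named here after their values were seen. Tnfsf15 (TL1A), a costimulator that binds the death domain receptor Tnfrsf25, was at 6.16, 6.28 and 6.41 against 5.88, 5.96 and 6.03 (difference 0.32, SE 0.09, adjusted p = 0.0662). Tnfsf15 passed without CLEC4C-DTR replicate 1, after a further quantile normalisation and with array weights. Its adjusted p ranged from 0.0404 to 0.182 over all alternatives. Tnfsf13b (BAFF), the survival factor of B cells, was at 5.25, 5.44 and 5.50 against 5.22, 5.14 and 5.10 (difference 0.25, SE 0.09, adjusted p = 0.133). Over the whole superfamily the CLEC4C-DTR values lay wholly above the controls in 11 members, against 14.0% of all genes, and wholly below in 3, against 19.0%.

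Tnfsf10 (TRAIL), a death-inducing ligand that interferon raises, was at 6.30, 6.04 and 5.63 in CLEC4C-DTR skin and at 5.55, 6.49 and 5.64 in controls. The highest of its 6 values was that of control replicate 2, and the difference of 0.10 had the widest interval among the members that did not pass (95% interval -0.51 to 0.70, adjusted p = 0.849). Tnfrsf10b, the mouse receptor that passes on the death signal of TRAIL, differed by 0.04 (95% interval -0.18 to 0.26, adjusted p = 0.831). The remaining ligands differed by 0.21 for Cd40lg, 0.20 for Tnfsf11 (RANKL) and 0.19 for Tnfsf8 (CD30 ligand), and none passed. Tnfsf8 and Tnfsf15 are direct neighbours.

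The largest rises in the superfamily were those of Tnfrsf23 and Tnfrsf26. Together with Tnfrsf22 they form a row of 3 genes with no other protein-coding gene between them, in the order Tnfrsf26, Tnfrsf22, Tnfrsf23. Tnfrsf22 and Tnfrsf23 are mouse receptors that bind TRAIL but have no death domain, and are therefore described as decoys. Tnfrsf23 was at 7.01, 8.25 and 7.80 in CLEC4C-DTR skin and at 6.41, 6.06 and 6.15 in controls, a 2.78-fold rise (log2 1.48, SE 0.28, adjusted p = 0.0223). Tnfrsf26, a related receptor, was at 7.08, 8.46 and 7.86 against 6.50, 6.51 and 6.08, a 2.70-fold rise (log2 1.43, SE 0.31, adjusted p = 0.0313). In both genes CLEC4C-DTR replicate 2 was the highest and replicate 1 the lowest of the group, and all 3 lay above the controls.

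Tnfrsf22, which lies between them, was at 6.98, 7.18 and 7.17 against 7.07, 6.71 and 7.04. Its groups overlapped, and the difference was 0.17 with a 95% interval of -0.10 to 0.44 (adjusted p = 0.390). The difference of Tnfrsf23 exceeded that of Tnfrsf22 by 1.31, and that of Tnfrsf26 exceeded it by 1.27, both at an exact permutation p of 0.1, the smallest possible. These receptors are close in sequence, and how far their probes read one another was not tested. Tnfrsf11b (osteoprotegerin), the soluble decoy of RANKL, differed by -0.18 (SE 0.14, adjusted p = 0.464).

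**Figure D2:**
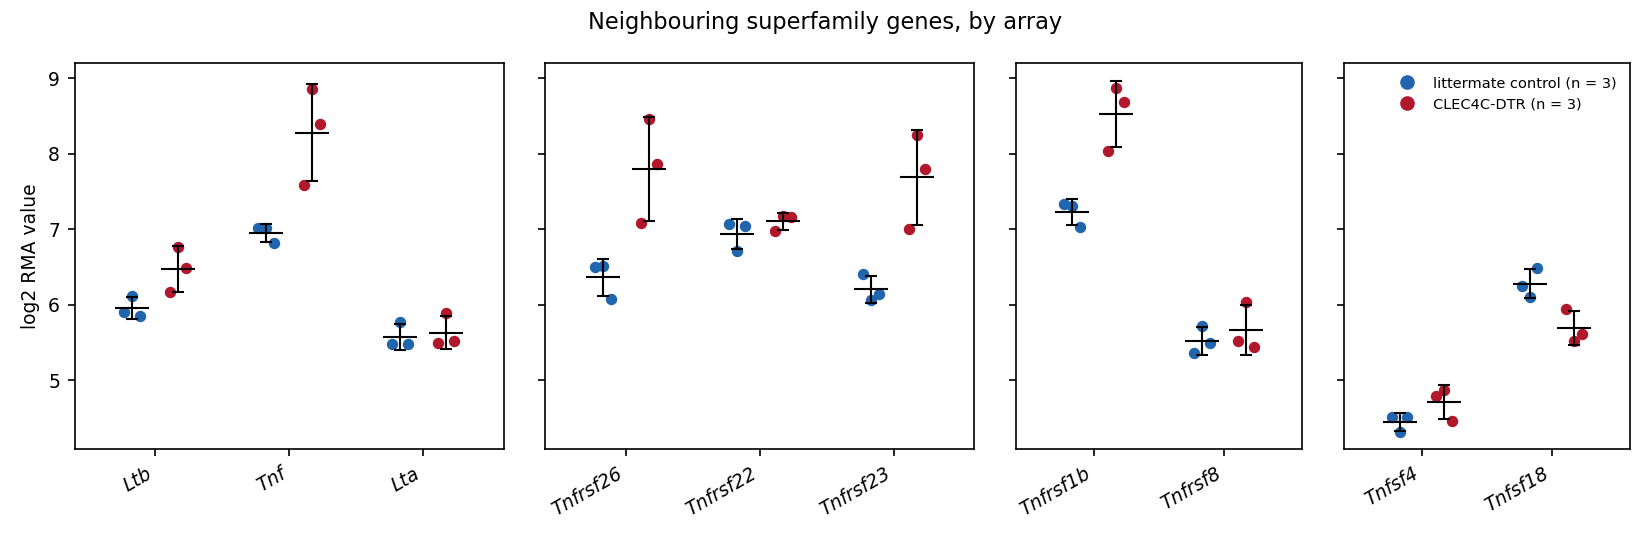
Log2 RMA values of TNF superfamily genes that lie next to each other on a chromosome, in 3 littermate control (blue) and 3 CLEC4C-DTR (red) arrays, with the mean and SD in black and one panel for each locus in chromosomal order. Tnf, Tnfrsf26, Tnfrsf23, Tnfrsf1b and Tnfsf18 show groups that do not overlap and passed the test, their neighbours Lta, Tnfrsf22, Tnfrsf8 and Tnfsf4 show groups that overlap, and Ltb shows groups apart without passing.

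Tnfrsf19 (TROY), a receptor known from hair follicles and other epithelial stem cell niches, showed the largest fall of the superfamily. It was at 7.57, 6.82 and 7.46 in CLEC4C-DTR skin and at 8.56, 8.34 and 8.47 in controls. The lowest control value exceeded the highest CLEC4C-DTR value, and the level was 2.26-fold lower (log2 -1.18, SE 0.19, adjusted p = 0.0164). The hair follicle genes Eda, Edar and Eda2r, a ligand and its receptors, did not pass. Eda differed by -0.16 (95% interval -0.42 to 0.11), Edar by -0.15 (95% interval -0.36 to 0.07) and Eda2r by 0.06 (95% interval -0.24 to 0.35).

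A list of 12 hair follicle markers held 1 fall and no rise, where 4.31% of all genes were lower. Sox9, a transcription factor of follicle stem cells, was the gene that fell (log2 -0.66, SE 0.11, adjusted p = 0.0175). Of the 12 differences 11 were negative, with a median of -0.28, and over all genes 11609 of 19938 were negative. The summed level of this list, as the log2 of the sum of its values on the linear scale, was 9.58 to 9.76 in CLEC4C-DTR skin and 9.95 to 10.11 in controls. Skeletal muscle genes (4 of 8 lower, summed level 12.17 to 12.61 against 12.86 to 13.45) and cartilage genes (2 of 7 lower, 9.23 to 9.70 against 9.82 to 10.10) were lower in the same arrays. The share of these tissues in the fall of Tnfrsf19 was not tested, and in whole skin fewer cells of a type and less RNA per cell cannot be told apart.

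Among the other death domain receptors, Fas was at 7.90, 8.69 and 8.14 in CLEC4C-DTR skin and at 7.79, 8.18 and 7.66 in controls. Control replicate 2 lay above CLEC4C-DTR replicates 1 and 3, and the difference of 0.37 did not pass (SE 0.21, adjusted p = 0.308). The ligand of Fas, Fasl, which the symbol rule does not cover, was at 4.50, 5.09 and 5.12 against 4.54, 4.53 and 4.47 (difference 0.39, SE 0.16, adjusted p = 0.165). Tnfrsf21 (DR6) and Tnfrsf25 (DR3) each differed by 0.04, with 95% intervals of -0.23 to 0.32 and -0.18 to 0.27. Of the 6 death domain receptors, Tnfrsf1a was thus the only one that passed.

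Of the 13 receptors without a death domain, Tnfrsf1b rose, Tnfrsf19 fell and 11 did not pass, with differences from -0.15 to 0.33. Cd40, the receptor through which T cells license antigen-presenting cells, was at 7.32, 7.33 and 7.04 against 6.78, 7.25 and 6.85 (difference 0.27, SE 0.14, adjusted p = 0.273). Control replicate 2 of Cd40 lay within the CLEC4C-DTR range. Tnfrsf12a, the receptor of TWEAK on injured epithelium and stroma, differed by -0.02 (95% interval -0.42 to 0.38). Tnfrsf11a (RANK) had all 3 CLEC4C-DTR values of 6.49 to 6.78 below the controls of 6.80 to 6.87, but differed by only -0.15 (SE 0.10, adjusted p = 0.361).

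None of the 3 receptors of B cells and plasma cells passed. Tnfrsf13b (TACI) was at 6.60 to 6.62 in CLEC4C-DTR skin and at 6.28 to 6.48 in controls, which did not overlap (difference 0.21, SE 0.08, adjusted p = 0.146). Tnfrsf13c (BAFF receptor) differed by 0.07 and Tnfrsf17 (BCMA) by -0.10, with adjusted p-values of 0.741 and 0.471. Of 9 measured B cell markers limma called 0 (1 below an unadjusted p of 0.05), and their summed level was 8.46 to 8.52 against 8.42 to 8.47. Tnfrsf8 (CD30), a receptor of activated lymphocytes and the direct neighbour of Tnfrsf1b, differed by 0.14 (SE 0.17, adjusted p = 0.645).

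**Figure D3:**
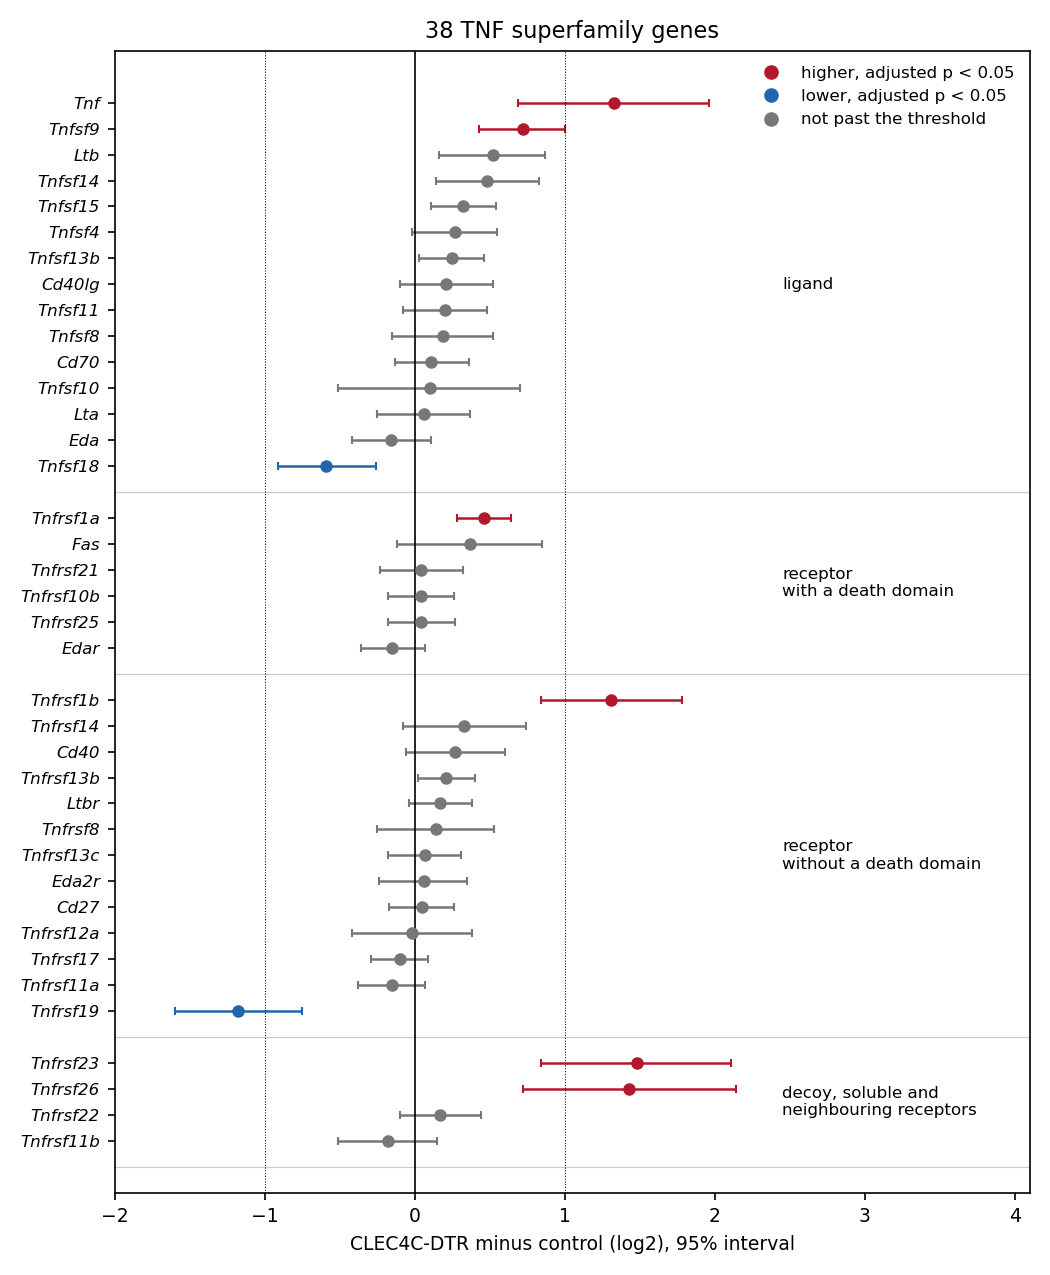
Difference between CLEC4C-DTR and control (log2, points) with its 95% interval (bars) for each of the 38 TNF superfamily genes, grouped by role, with dotted lines at a 2-fold difference. The 6 genes that rose are in red, the 2 that fell in blue and the 30 others in grey, between -0.18 (Tnfrsf11b) and 0.52 (Ltb).

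Set out as ligand and receptor pairs, 23 known pairs had both partners among the members. Both partners rose in 2 of them, Tnf with Tnfrsf1a and Tnf with Tnfrsf1b. In 3 pairs only the receptor rose: Tnfrsf1a and Tnfrsf1b with Lta as the ligand, and Tnfrsf23 with Tnfsf10. In the other 18 neither partner passed. Receptors of Tnfsf9 and Tnfsf18 are not among the members, and no ligand was paired with Tnfrsf19 or Tnfrsf26.

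Myeloid marker genes were higher in the same arrays as the members that rose. Of 11 neutrophil markers 8 were higher, with a summed level of 14.19 to 14.81 in CLEC4C-DTR skin and 12.73 to 12.98 in controls. Of 10 macrophage markers 8 were higher and 1 lower (12.39 to 12.90 against 11.13 to 11.55). Over all genes 5.01% were higher and 4.31% lower. The neutrophil sum is weighted to its brightest genes, S100a8 (means 13.1 against 11.49) and S100a9 (13.29 against 11.8). How far other skin cells carry these 2 transcripts was not tested. The neutrophil markers lay on average 1.02, 2.25 and 2.09 (log2) above the control mean in CLEC4C-DTR replicates 1, 2 and 3, and the macrophage markers 0.82, 1.03 and 1.23. For Tnf, Tnfsf9, Tnfrsf1a, Tnfrsf1b, Tnfrsf23 and Tnfrsf26 replicate 1 was the lowest of its group and replicate 2 the highest. The neutrophil markers had that order, whereas the macrophage markers were highest in replicate 3. The T cell markers shared the order (0.27, 0.47 and 0.29 in replicates 1, 2 and 3). So did the NF-kB targets (0.64, 1.26 and 0.88) and the adaptors (0.10, 0.24 and 0.12) listed below, so it was not particular to neutrophil markers. Dendritic cell (0.31, 0.40 and 0.27) and NK cell markers (0.21, 0.50 and 0.01) were lowest in replicate 3. Of 10 dendritic cell markers 4 were higher (10.11 to 10.32 against 9.92 to 10.07). Of 10 T cell markers limma called 0 (8 below an unadjusted p of 0.05), with a summed level of 10.08 to 10.29 against 9.74 to 9.93. All 10 differences were positive, against 8329 of all 19938 genes. The count of T cell markers called depended on the fit. Limma called 2 T cell markers higher after median centring, after a further quantile normalisation and with array weights, and 3 with a replicate block. The part of these cells in the rise of the members was not tested.

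The marker counts also fell in most sets of 5 arrays. Rises among the neutrophil markers numbered 2 and 4 when CLEC4C-DTR replicate 3 or 2 was removed, and 3 and 2 when control replicate 1 or 3 was removed. Among the macrophage markers the same fits gave 1, 4, 2 and 2 rises, and among the dendritic cell markers 1 each, as did the fit without control replicate 2. In these fits 9 or 10 of the 11 neutrophil and of the 10 macrophage markers lay below an unadjusted p of 0.05. So did 4 or 5 of the 10 dendritic cell markers. Without CLEC4C-DTR replicate 2 or 3, or control replicate 1 or 3, limma called 0 falls among the hair follicle, muscle and cartilage genes. Of the 12 hair follicle genes 2 to 4 lay below an unadjusted p of 0.05. Below that p were also 6 to 8 of the 8 muscle genes and 3 to 5 of the 7 cartilage genes. Without control replicate 2 limma called 2, 2 and 0 falls in these lists (6, 7 and 3 below an unadjusted p of 0.05). Without CLEC4C-DTR replicate 1 it called 3, 5 and 3.

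Downstream of the receptors, 31 adaptors and proximal signalling genes were measured, of which 2 rose, 1 fell and 28 did not pass. The 3 called of 31 were close to the background of 9.32%, and the median difference was 0.08. Traf1, an adaptor that is itself induced by NF-kB, was at 6.21, 6.62 and 6.18 against 5.56, 5.81 and 5.76 (difference 0.63, SE 0.13, adjusted p = 0.0302). Birc3 (cIAP2), the ubiquitin ligase that holds back cell death at TNFR1, rose 1.56-fold, by 0.64 (SE 0.14, adjusted p = 0.0341). Traf5, an adaptor of lymphocyte receptors of this family, was the gene that fell (log2 -0.59, SE 0.14, adjusted p = 0.0394). Map3k8 (TPL2), the kinase of the ERK branch, differed by 0.57 and had the next smallest p (adjusted p = 0.0591). Limma called 0 of the 31 in the fits that lack CLEC4C-DTR replicate 2 or 3 or control replicate 1 or 3, where 7, 9, 7 and 6 lay below an unadjusted p of 0.05. The fit that lacks CLEC4C-DTR replicate 1 gave 4 rises and 1 fall, and the fit that lacks control replicate 2 gave 3 rises and no fall.

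Of 29 measured genes known as NF-kB targets, 11 rose and 18 did not pass, and the median difference was 0.68. The background over all genes was 5.01% higher and 4.31% lower, with a median difference of -0.04. The 4 with the smallest p were Ccl20, Cxcl2, Mmp9 and Csf2. Ccl20, the ligand of Ccr6, rose 2.33-fold, and Csf2 (GM-CSF), a growth factor of myeloid cells, rose 1.76-fold (log2 0.82, SE 0.13, adjusted p = 0.0174). Cxcl2, a neutrophil chemokine, rose 9.77-fold, and the gelatinase Mmp9, which is also one of the neutrophil markers above, rose 4.83-fold. The inhibitors of NF-kB Nfkbia and Nfkbie, which the pathway induces as feedback, rose 1.93-fold and 1.85-fold. Tnfaip2, a gene named for its induction by TNF, rose 3.22-fold, and Tnfaip3 (A20), the feedback inhibitor of TNF signalling, differed by 0.58 with groups apart but did not pass (adjusted p = 0.065). The adhesion genes Icam1, Vcam1 and Sele differed by 0.32, -0.08 and 0.11 with overlapping groups, and none passed (adjusted p = 0.328, 0.740 and 0.743). The genes from Nfkbia to Sele were named after their values were seen. Several signals besides TNF induce genes of this list, and their shares were not tested.

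The count of rising NF-kB targets was 0 in the fits that lack CLEC4C-DTR replicate 3 or control replicate 3, each with 20 genes below an unadjusted p of 0.05. It was 5 when CLEC4C-DTR replicate 2 was removed and 1 when control replicate 1 was removed, against 12 and 16 when CLEC4C-DTR replicate 1 or control replicate 2 was removed. In the order given, these fits called 108, 67, 466, 167, 2617 and 1219 genes in all.

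Genes that shed or process TNF superfamily ligands changed in part. Timp3, the inhibitor of the TNF-shedding protease ADAM17, was at 10.57, 9.80 and 10.19 against 11.21, 11.22 and 11.31 and fell (log2 -1.06, SE 0.17, adjusted p = 0.0172). Furin, a convertase that activates ADAM17 and cleaves several ligands of the family, rose 2.05-fold (log2 1.04, SE 0.18, adjusted p = 0.0193). Adam17 itself differed by 0.04 (adjusted p = 0.790), and Rhbdf2 (iRhom2), which guides ADAM17 to the surface of immune cells, differed by 0.50 (SE 0.15, adjusted p = 0.0752). Neither Timp3 nor Furin passed when CLEC4C-DTR replicate 3 or control replicate 1 or 3 was removed, and 3 of the 6 genes lay below an unadjusted p of 0.05 in each of these fits.

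**Figure D4:**
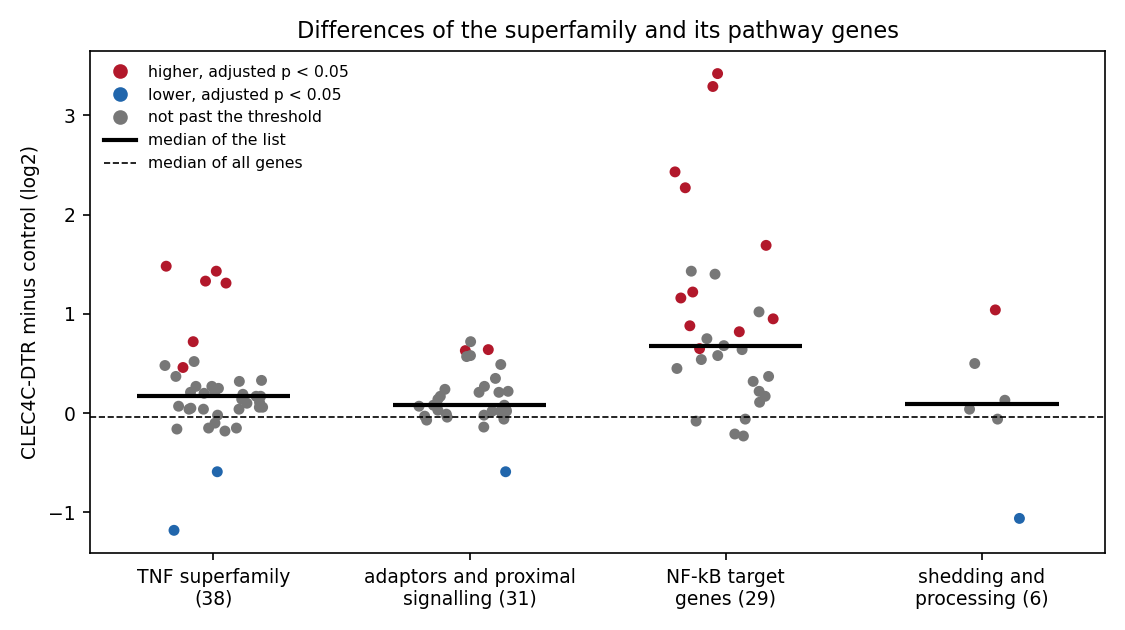
Difference between CLEC4C-DTR and control (log2) of each gene of the TNF superfamily and of 3 lists of pathway genes, spread sideways for sight, with the median of each list (thick line) and of all genes (dashed line). The medians are 0.17, 0.08, 0.68 and 0.09 from left to right, and -0.04 for all genes.

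The arrays carried the genes of ear skin. Over all 6 arrays Krt5 lay at 11.94 to 12.34, Krt14 at 12.01 to 12.22, Krt10 at 11.92 to 12.85 and Lor at 8.48 to 9.99. Col1a1 lay at 7.93 to 8.52, Col3a1 at 8.80 to 9.20 and the endothelial gene Pecam1 at 7.59 to 8.15. Of the cartilage genes, Acan lay at 7.44 to 8.69, but Col2a1 at 6.41 to 6.58, little above the array medians of 6.17 to 6.23. Of 9 markers of plasmacytoid dendritic cells, the cells the toxin is meant to remove, limma called 0 with all arrays, with a median difference of -0.17. The 2 that lay below an unadjusted p of 0.05 had opposite signs (Bst2 0.57 and Tcf4 -0.41). Siglech had means of 5.47 against 5.64 (difference -0.17, adjusted p = 0.378). Limma called 1 marker lower when CLEC4C-DTR replicate 1 was removed and 2 higher when control replicate 2 was removed. How far other cells of the skin carry these transcripts was not tested, so the counts do not show whether plasmacytoid dendritic cells were lost. Of 9 markers each, basal keratinocyte genes had 1 fall, fibroblast genes 1 rise and 1 fall, and endothelial genes 1 rise. Differentiated keratinocyte genes had 1 rise among 7. These counts are to be read against 5.01% higher and 4.31% lower over all genes. The table holds no background measure, so no member could be called present or absent. Of the 38 members, 34 lay above the lower quartile of gene means and 17 above their median.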

How the data were processed

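Total RNA of whole ear skin was hybridised to Affymetrix Mouse Gene 1.0 ST arrays, per the labels' protocols and the series' design text. Per that design text, the values that the authors deposited were processed by RMA, and their range of 1.60 to 13.9 marks them as log2. Which software ran RMA is not known here, and build mm8 appears in the submitters' processing notes without a role. Array medians were 6.17 to 6.23.

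Probe sets with 1 symbol in the platform annotation were kept (21789 of 35556), and of several for a gene the brightest over the 6 arrays. CLEC4C-DTR was compared with control over all 19938 genes by limma 3.58.1 in R 4.3.3 (lmFit and eBayes, two-sided, Benjamini-Hochberg over all genes), checked on simulated data. Replicates are separate animals. The precision is limited by 3 arrays per group, and an exact permutation test cannot go below 0.1. Differences between members' differences (8 pairs, chosen after their values were seen, adjusted p = 0.1 for each) used that test.

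Members and lists were chosen with earlier results of these data known. Values in every array are given for members past the threshold, for Tnf, Lta, Ltb and their receptors, and for partners of called members, and of each pathway list up to 4 genes with the smallest p are named. Genes named beyond this (such as Tnfsf4, Tnfrsf22, Fas, Cd40 and Sox9) were chosen after their values were seen. List genes were matched by symbol: 31 of 33 adaptors, 29 of 32 NF-kB targets and 6 of 6 shedding genes had a probe set of their own. Figures were drawn with matplotlib 3.10.9.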

Additional observations from a re-analysis of the deposited data

How the results depend on the processing

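With all variances left unmoderated, limma's fit called 0 members and 0 genes in all, with 11 members at an unadjusted p under 0.05. With the 12146 unlisted probe sets added it called 0 members and 95 features, with 13 members at an unadjusted p under 0.05. Over genes above the median level, 17 members were tested, with 5 higher in place of 6 and 1 lower in place of 2. Tnfsf9 and Tnfsf18 did not lie above that level and so were not tested in that fit. With trended and robust moderation 3 members passed at 2-fold in place of 5, and Tnf and Tnfrsf26 no longer passed. Leaving out 1 array at a time gave 0 to 9 members higher, 0 to 2 lower, 0 to 5 at 2-fold and 67 to 2617 genes in all. Same-numbered arrays were not treated as pairs in the main fit. Deviations of same-numbered arrays correlated at -0.06, 0.22 and 0.10, and 3 of 6 arrays correlated best with their own number. These values do not settle whether the animals were paired. With the replicate block 7 members were higher, 2 lower and 2084 genes were called. Of 134 values of the 8 called members under these alternatives, 83 passed, 51 no longer passed and 0 reversed. Of 487 values of the 30 other members, 7 newly passed. Where a cause is not given, the cause was not tested.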
